A study of Bos taurus with 30 samples.

Results

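The sites described here are stretches of open chromatin in bovine germinal vesicle (GV) oocytes that had no counterpart in 2-cell embryos, were open again at the 4-cell stage and accessible in each later control group. A region of a group was a stretch covered by merged peaks with peaks of at least 2 of its 3 libraries. Members were the GV regions that overlapped no 2-cell region and overlapped a region at all of the following: 4-cell embryos, 8-cell embryos, morulae, the inner cell mass (ICM) and cultured embryonic stem cells (ESC). They were selected on the presence of peaks in the 21 control libraries, so that presence is given as a description and never tested. The rule found 8989 such sites, called maintained oocyte sites below, among 33347 GV regions.

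The lists came from ATAC-seq, in which a transposase inserts sequencing adapters into accessible DNA. Each group had 3 libraries made from pooled cells. Those of oocytes and embryos came from separate oocyte collections, and those of ESC from cultured cells. The control groups were GV oocytes, 2-cell embryos at 30 to 32 h after insemination, 4-cell embryos at 2 days post insemination (dpi), 8-cell embryos at 3 dpi, morulae at 5 dpi, ICM isolated by immunosurgery from blastocysts at 7 dpi, and ESC. Transcription blocked embryos (TBE) were collected at the 2-, 4- and 8-cell stages after culture with 50 µg/ml α-amanitin, and none of these 9 libraries entered the rule. Treated and control embryos of a stage came from the same collections, split and cultured side by side. All embryos were produced in vitro with semen of a single Holstein bull. The ESC were lines derived from ICM and grown on mouse feeder cells. Each pool is an average over its cells, so fewer cells with an open site and less opening per cell cannot be told apart.

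A fully grown oocyte is transcriptionally silent and carries the RNA and protein on which the first cleavages depend. In cattle the main wave of embryonic genome activation falls at the 8-cell stage, after a minor wave. α-Amanitin binds RNA polymerase II and blocks elongation, so chromatin that opens in treated embryos does so with embryonic transcription inhibited. An open site after fertilization can mark a promoter, an enhancer or the binding site of an architectural protein such as CTCF. The genes at the sites were not analysed here, because no annotation of the build of the files, ARS-UCD1.2, was used.

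The lists differed widely in length, from 925 to 247513 peaks. The 2-cell control lists held 1002, 1262 and 6440 peaks and shared only 677 regions, so 98.1% of GV regions had no 2-cell region. A closed site and one below detection in these 2-cell lists cannot be told apart. The 4-cell condition removed most GV regions, leaving 10896, and 82.5% of those went on to meet the remaining conditions. The 4-cell control lists fell from 42012 peaks in replicate 1 to 22983 in replicate 2 and 14355 in replicate 3.

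Peaks stood at the maintained oocyte sites in nearly all control lists outside the 2-cell stage. The share of sites with a peak was 98.4%, 96.4% and 96.6% in the 3 GV libraries. At the 2-cell stage it was 1.92%, 1.87% and 19.7%, with replicate 3, the longest list, far above the other two. In 4-cell embryos it was 99.6%, 87.2% and 59.8%, in the order of list length. From the 8-cell stage on it stayed between 95.4% and 99.9% in 11 of 12 libraries. The exception was ESC replicate 1, at 80.4%, whose list of 39333 peaks was the shortest of its group. These shares follow from the selection.

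**Figure D1:**
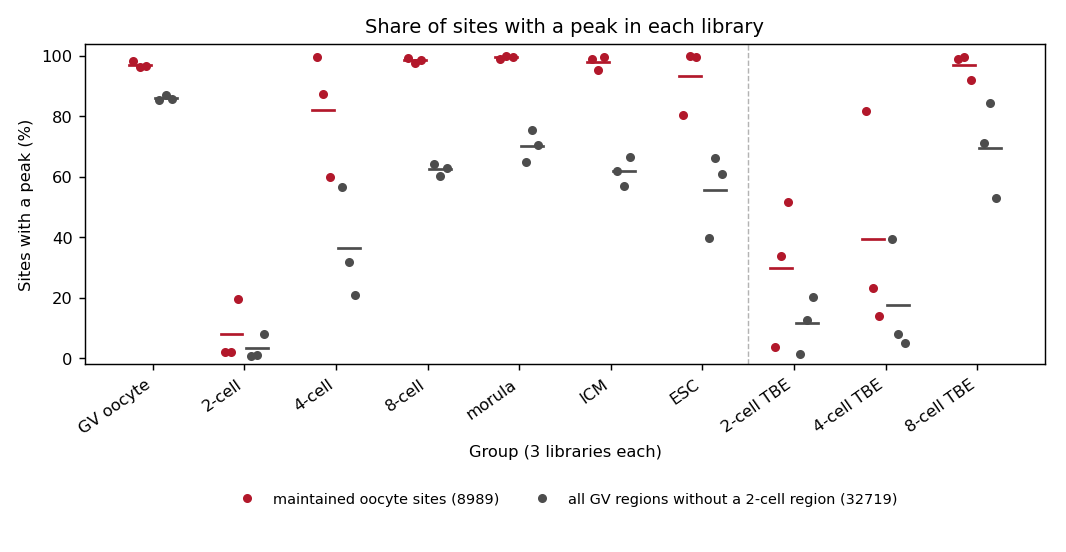
Share of sites (%, y axis) with a peak in each of the 30 libraries (points, 3 a group on the x axis, with bars at group means), for the 8989 maintained oocyte sites in red and all 32719 GV regions without a 2-cell region in grey. The red shares of the control groups, left of the dashed line, follow from the selection. No TBE library entered it, and in all 9 TBE libraries red lies above grey, which includes the red sites. The sites were chosen for peaks in control lists, and the part of that choice in the TBE shares was not tested.

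Support was uneven among stages. Peaks of all 3 libraries stood at 98.5% of the sites in morulae, 95.7% in 8-cell embryos, 94.3% in ICM, 91.4% in GV oocytes and 80.1% in ESC. In 4-cell embryos this held for 47.1%, and 4720 sites rested on exactly 2 lists there. An equal number of GV regions, 4720, met every other condition and had a peak in a single 4-cell list, that of replicate 1 in 93.0% of cases. In the list of 4-cell replicate 1, the median fold enrichment of the peak over background was 5.58 at sites with 3 lists, 4.73 at sites with exactly 2 and 4.22 just outside the rule. In all 18 control lists outside the 2-cell stage a peak was present at 3467 sites, or 38.6%. In the 2-cell control lists 6897 sites had no peak, 2073 had a peak in 1 list and 19 had peaks of 2 lists that lay apart within the site.

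The sites were wider than most other classes of oocyte sites. Their median width was 892 bp, and the middle 50% of sites lay between 623 and 1208 bp. All GV regions without a 2-cell region had a median of 698 bp, and the 6304 GV regions that overlapped no region of these later control groups had a median of 505 bp. The 480 GV regions open at every stage, 2-cell embryos included, were wider still at the median, at 947 bp. At the later stages, 8-cell regions covered a median of 99.3% of a site and 4-cell regions 82.8%. The 8-cell regions at the sites were 1272 bp wide at the median, against 609 bp for the rest. These widths come from the lists the rule used and are descriptions.

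The rule does not say whether the sites opened with transcription blocked. In 8-cell TBE nearly all of them had a region, namely 8899 of 8989 or 99.0%, where 71.9% of all GV regions without a 2-cell region did. In 4-cell TBE 2545 sites, or 28.3%, had a region against a background of 9.36%. In 2-cell TBE 2194 sites, or 24.4%, had one against 7.79%, although none of them had a region in 2-cell control embryos. Read from the other side, 68.0% of the 3230 regions of 2-cell TBE and 64.3% of the 3961 regions of 4-cell TBE lay at a maintained oocyte site, against 10.8% of the 82048 regions of 8-cell TBE. In the control groups, which the rule used, 59.4% of the 15117 4-cell regions and 7.49% of the 120364 8-cell regions did. By the rule no 2-cell control region did. Both a 2-cell and a 4-cell TBE region were present at 1253 sites, which is 57.1% of the former and 49.2% of the latter. The same overlap over all GV regions without a 2-cell region is not given here, so it cannot be called particular to these sites.

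These counts depend on single TBE lists. With both remaining libraries required, the 8-cell TBE share was 92.3%, 92.1% and 98.7% without replicate 1, 2 and 3, beside backgrounds of 53.7%, 51.7% and 69.9%. The 4-cell TBE share fell to 6.04% without replicate 1, 12.9% without replicate 2 and 21.4% without replicate 3, against backgrounds of 1.82%, 4.21% and 6.97%. The 2-cell TBE share was 23.4% without replicate 1, but 3.04% without replicate 2 and 2.40% without replicate 3, against 7.40%, 0.923% and 0.730%. In each of these settings the share at the maintained sites stayed above the background.

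Library by library, the 2-cell TBE lists had a peak at 3.80%, 33.7% and 51.6% of the sites, in lists of 925, 8118 and 11083 peaks. At the 4-cell stage the corresponding shares were 81.6%, 23.1% and 13.9%, with 32260, 4166 and 3094 peaks. The order of the libraries within a stage was thus that of list length. In 8-cell TBE the shares were 98.9%, 99.5% and 92.1%, with 90890, 247513 and 50090 peaks, and replicate 3 was the low one. A peak was present in 5 or more of the 9 TBE libraries at 60.4% of the sites, against 21.5% of all GV regions without a 2-cell region. Peaks of all 9 libraries were found at 85 sites (0.946%) and of none at 7 (0.0779%). Among all GV regions without a 2-cell region, the maintained sites included, 87 (0.266%) had peaks of all 9 and 4021 (12.3%) of none. All 9 had a peak at 188 of the 480 sites open at every stage (39.2%).

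In these 9 libraries the sites more often had a peak than the comparison classes of oocyte sites described next. Each TBE library gives 1 share for each class of site, so classes were compared within libraries by exact two-sided sign-flip permutation tests. Against the 10420 GV regions with no 2-cell and no 4-cell region that overlapped an 8-cell region, the share with a peak was higher at maintained sites in 9 of 9 libraries. The difference was 24.8 ± 15.1 percentage points (SD over 9 libraries, 3 at each of 3 stages). By stage it was 23.7 ± 18.6 in 2-cell, 27.6 ± 19.6 in 4-cell and 23.0 ± 13.0 in 8-cell TBE (SD, n = 3 each). Over the 9 pooled libraries the exact sign-flip permutation p was 0.00391, the smallest this design can give, or 0.0137 after Benjamini-Hochberg adjustment over 7 comparisons. It rests on 9 equal signs, and no stage alone could give a p below 0.25 in this test. This class is called late-reopened for its lack of a 4-cell region alone. In 4-cell control replicates 1, 2 and 3, 55.3%, 5.92% and 2.50% of its sites had a peak, in the order of list length. Late opening and missed detection at the 4-cell stage thus cannot be told apart. In 8-cell TBE the late-reopened class had a peak at 77.8%, 88.4% and 55.3% of its sites, each below its maintained counterpart. In 4-cell TBE it stood at 31.9%, 2.43% and 1.42%, and in 2-cell TBE at 0.432%, 5.68% and 11.8%. Within 10 bins of GV fold enrichment the difference was 20.7 points, with an exact permutation p of 0.00391.

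The second comparison used 419 GV regions that, like the maintained sites, had no 2-cell region and were open at the 4-cell, 8-cell and morula stages, but had no ICM region. They had a peak at 94.7%, 98.6% and 77.8% of sites in 8-cell TBE, at 66.8%, 8.83% and 8.11% in 4-cell TBE, and at 0.477%, 18.9% and 28.6% in 2-cell TBE. The maintained sites were higher in 9 of 9 libraries, by 10.6 ± 7.30 points (SD over the 9 libraries of all stages, exact sign-flip permutation p = 0.00391, adjusted 0.0137). By stage the difference was 13.7 ± 9.86 points in 2-cell, 11.6 ± 5.07 in 4-cell and 6.48 ± 6.99 in 8-cell TBE (SD, n = 3 each). Differences ranged from 0.931 points in 8-cell TBE replicate 2, where both classes were close to 100%, to 22.9 points in 2-cell TBE replicate 3. The mean difference was 4.75 points with peaks restricted to a −log10 q-value of at least 3 and 5.26 points where 50% of a site had to be covered, with exact permutation p-values of 0.00391 and 0.0117. The comparison classes were narrower, at medians of 680 bp for the sites lost by ICM and 676 bp for the late class, and the part of width in these differences beyond the 50% criterion was not tested. Each class was also defined by lacking a control region that members had to have, at the 4-cell stage for the late class and in ICM for the other. The part of peak strength and detection in control embryos in these differences was not tested, beyond the bins of GV fold enrichment.

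**Figure D2:**
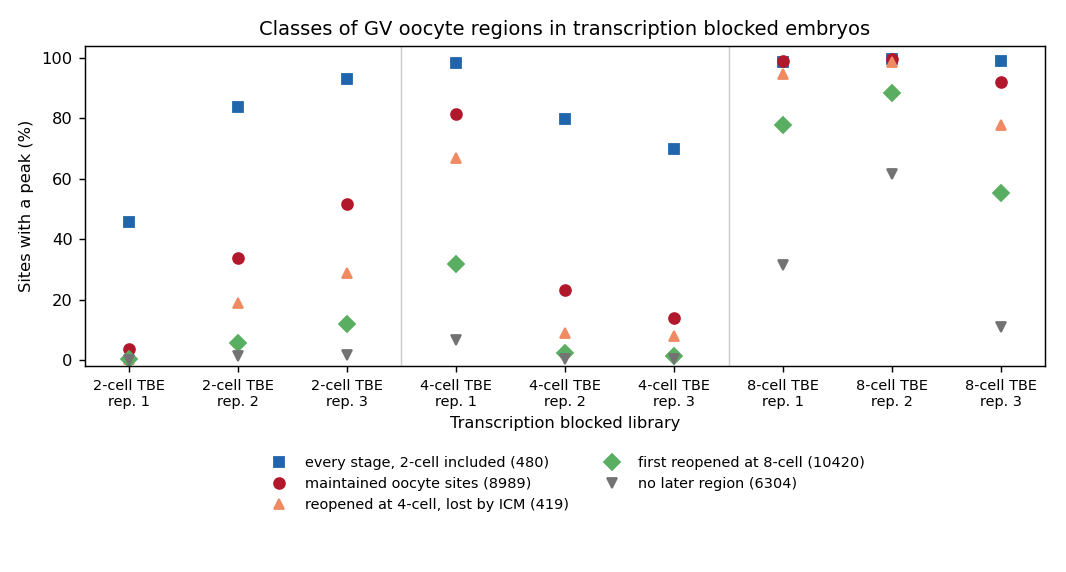
Share of sites with a peak (%, y axis) in each of the 9 transcription blocked libraries (x axis) for 5 classes of GV regions, with class sizes in brackets. The maintained oocyte sites (red circles) lie above the sites lost by ICM, the late-reopened sites and the sites with no later region in each library, and below the 480 sites open at every stage in 8 of 9 libraries, where 8-cell TBE replicate 1 is the exception by a margin too small to see.

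Sites that were open at every stage, 2-cell embryos included, numbered 480 and stood higher still in the early treated embryos, with a peak at 45.6%, 83.8% and 92.9% of sites in 2-cell TBE and 98.3%, 79.8% and 69.8% in 4-cell TBE. GV regions with no later region had a peak at 0.0793%, 1.33% and 1.71% in 2-cell TBE and at 31.3%, 61.4% and 11.0% in 8-cell TBE. The maintained sites lay between these classes.

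Treated and untreated embryos of a stage were compared with each control replicate held out in turn. Members were redefined from the remaining control libraries of that stage, both required, and the held-out library was then scored. No control value thus came from a library that had chosen the sites. The sites were still chosen on control lists of the same stage, by a region present or absent as the rule asks, and on no TBE list. The part of that choice in the differences between TBE and held-out control was not tested at any stage. Each TBE library was given the mean of its shares over the 3 sets so defined. A control library was scored only on its own set, so the arms were not scored on identical sites, and the permutation test ignores this. With 3 libraries against 3, the exact two-sided permutation test cannot give a p below 0.1, and a difference was called only where the groups did not overlap. None of the 3 comparisons of shares met this. Equal replicate numbers may mark a shared collection, which the labels do not say, so differences within numbers are given as well. An exact sign-flip permutation test over 3 pairs cannot give a p below 0.25.

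In 8-cell embryos the held-out control libraries had a peak at 99.4%, 97.4% and 98.6% of the sites. The 8-cell TBE libraries had one at 99.0%, 99.5% and 92.4%. The groups overlapped, with a TBE mean of 97.0% ± 3.96 and a control mean of 98.5% ± 0.982 (SD, n = 3 each), a difference of −1.49 points (exact permutation p = 0.9). The direction depended on how the lists were made comparable. With all 6 lists cut to their 50090 strongest peaks, TBE stood at 95.8%, 88.8% and 92.4% and control at 84.9%, 81.0% and 80.0%, so TBE was higher by 10.4 points without overlap (exact permutation p = 0.1). With peaks of at least 3-fold enrichment the difference was −12.8 points, and with a −log10 q-value of at least 3 it was −7.27 points, both without overlap and with exact permutation p = 0.1.

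In 4-cell embryos the sets without a control replicate held 4163, 5338 and 7828 sites, and the held-out libraries had a peak at 99.3%, 79.0% and 54.0% of them. The 4-cell TBE libraries stood at 87.2%, 29.8% and 18.3%. The difference was −32.3 points (45.1% ± 36.9 in TBE against 77.4% ± 22.7, SD, n = 3 each), but TBE replicate 1 lay above control replicates 2 and 3 (exact permutation p = 0.3). Without replicate 1 of both arms the groups did not overlap, and the difference was −44.5 points. With lists cut to 3094 peaks it was −4.88 points, with overlapping groups (exact permutation p = 0.6). Within replicate numbers TBE was lower in 3 of 3 pairs (exact permutation p = 0.25).

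In 2-cell embryos the held-out control libraries had a peak at 2.95%, 4.07% and 22.2% of the sites, and the TBE libraries at 4.22%, 34.6% and 52.4%. The TBE mean was 20.7 points higher (30.4% ± 24.4 against 9.73% ± 10.8, SD, n = 3 each, exact permutation p = 0.2), with TBE replicate 1 below control replicate 3. Without replicate 1 of both arms the groups did not overlap and the difference was 30.6 points, and without replicate 3 they did not overlap either, at 15.7 points. With every list cut to 925 peaks, TBE stood at 4.22%, 5.70% and 5.95% and control at 2.73%, 2.82% and 3.99%, a difference of 2.11 points without overlap (exact permutation p = 0.1). It was 8.70 points where 50% of a site had to be covered and 11.6 points with regions from any replicate, with overlapping groups in both. Within replicate numbers TBE was higher in 3 of 3 pairs (exact permutation p = 0.25). The genome-wide background pileup implied by the peak values was 0.123 and 0.718 in 2-cell control replicates 2 and 3 and 0.196 and 0.343 in 2-cell TBE replicates 2 and 3, with upper limits of 0.22 and 0.14 for replicate 1 of each, and its part in the difference was not tested.

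The gap between treated and control embryos was positive at the 2-cell stage and negative at the 4-cell stage. The difference between these gaps was 53.0 points and did not pass a permutation of labels within both stages (exact p = 0.105, adjusted 0.26 over 3 pairs of stages). Both signs are those the rule favours, since it excluded a 2-cell control region, required a 4-cell control region and used no TBE list. The part of that choice in the difference was not tested.

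**Figure D3:**
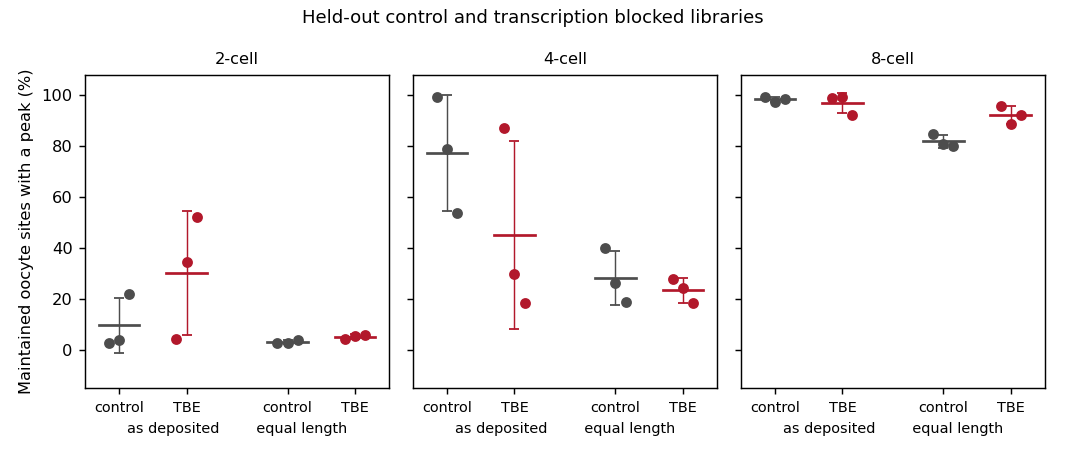
Share of maintained oocyte sites with a peak (%, y axis) in held-out control libraries (grey) and TBE libraries (red) at the 2-, 4- and 8-cell stages, from lists as deposited and from lists cut to equal length (points are libraries, horizontal bars means, error bars SD, n = 3). Groups overlap at each stage in the lists as deposited, and with equal lengths TBE lies above control at the 2- and 8-cell stages without overlap. The sites were chosen on other control lists of the stage and on no TBE list, and the part of that choice was not tested.

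The strongest peaks of a list gave a measure less tied to its length. Of the 1000 peaks with the highest −log10 p-value, 62.0%, 51.2% and 64.9% lay at a maintained site in the 8-cell TBE libraries and 56.8%, 51.8% and 54.8% in the held-out 8-cell controls. The groups overlapped through TBE replicate 2, and the difference of 4.92 points had an exact permutation p of 0.4. Replicate 2 had by far the highest background pileup of all libraries, 3.82. Without replicate 2 of both arms the difference was 7.60 points without overlap, and with peaks ranked by fold enrichment it was 24.5 points, also without overlap (exact permutation p = 0.1 for the latter, 3 against 3). In 4-cell embryos the share was 53.2%, 42.2% and 37.1% in TBE and 58.5%, 48.6% and 50.2% in held-out controls, a difference of −8.26 points with overlapping groups (exact permutation p = 0.3). Without replicate 1 of both arms they did not overlap, at −8.48 points, and ranked by fold enrichment the difference was −4.79 points. Within replicate numbers TBE was lower in 3 of 3 pairs (exact permutation p = 0.25).

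Sites that were taller in the oocyte more often had a peak in early embryos, treated or not. The members were split into 4 groups of about equal size by mean fold enrichment over the 3 GV libraries, the lowest from 1.71 to 4.20 and the highest from 5.75 to 9.64. A GV library without a peak at a site added nothing to its mean. From the lowest to the highest group the share with a peak went from 16.4% to 55.3% in 2-cell TBE replicate 2 and from 30.2% to 74.3% in replicate 3. It went from 65.5% to 92.9%, 8.46% to 41.5% and 6.14% to 25.7% in the 3 libraries of 4-cell TBE. Untreated lists went the same way, from 10.4% to 32.3% in 2-cell control replicate 3, and from 79.4% to 94.5% and 49.0% to 72.0% in 4-cell control replicates 2 and 3. The exception was 2-cell control replicate 1, at 2.00% and 1.78%, while 4-cell control replicate 1 was at 99.1% or more in all 4 groups. The tallest group was also the narrowest, with a median width of 718 bp against 999 bp in the lowest. In 8-cell TBE replicates 1 and 2 the share was 98.4% or more in all 4 groups, and in replicate 3 between 88.6% and 93.9%.

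**Figure D4:**
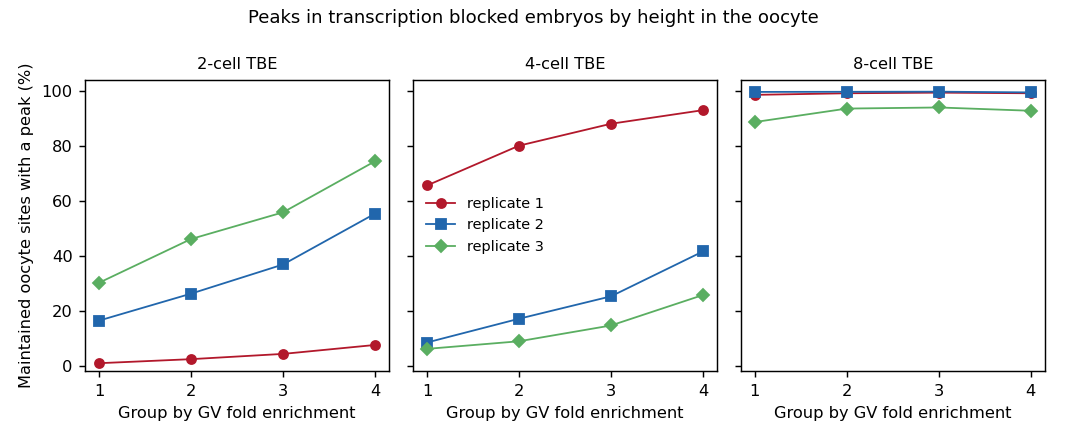
Share of maintained oocyte sites with a peak (%, y axis) in each TBE library by mean GV fold enrichment (x axis, 4 groups from 1, lowest, to 4, highest, with 2247 or 2248 sites each). The share rises with the group in all 2- and 4-cell TBE libraries and is near its ceiling in 8-cell TBE replicates 1 and 2.

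The same order appeared at the border of the rule. In 4-cell TBE replicate 1 a peak was present at 91.4% of the sites with 3 control 4-cell lists, 73.1% of those with exactly 2 and 44.6% of the regions just outside. In 2-cell TBE replicate 3 the values were 66.3%, 38.7% and 17.9%. A peak in 2-cell control replicate 3 went with the same pattern, since 73.4% of the 1770 sites with such a peak had one in 2-cell TBE replicate 3, against 46.2% of the other 7219. These are descriptions without a test.

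Peak heights of the control groups come from lists the rule used and are descriptions. Fold enrichment also depends on the background pileup of a library, solved at 0.123 to 3.82, and its part in differences between libraries was not tested. Median fold enrichment was 5.28, 4.88 and 4.65 in the GV lists, 4.51, 4.80 and 5.20 in 8-cell embryos, and 6.04, 6.13 and 5.86 in morulae, the highest of the 7 control groups. In 8-cell TBE it was 4.34, 3.24 and 4.73, with the low value in replicate 2. The median rank of their peaks by −log10 p-value, as a percentile of each list, was 89.9, 95.5 and 79.5 in 8-cell TBE, 77.6, 52.6 and 55.4 in 4-cell TBE and 39.0, 62.7 and 60.8 in 2-cell TBE. In the 2-cell controls it was 35.7, 34.5 and 63.0, so the sites did not rank high in the shortest lists. Across sites, the Spearman rho of fold enrichment averaged 0.61 between GV replicates, 0.51 between GV and ICM libraries, 0.42 between GV and 4-cell control libraries and 0.35 between GV and 8-cell TBE libraries. It averaged 0.66 between 8-cell embryos and morulae and 0.33 between 8-cell embryos and 8-cell TBE. Each rho is over the sites with a peak in both libraries of a pair, which share their width and sequence, and is a description.

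The 90 sites without an 8-cell TBE region were not the weak ones of the 8-cell controls. In 8-cell controls their median fold enrichment was 4.78, 5.22 and 5.72, against 4.51, 4.80 and 5.19 at sites with such a region. They were narrower, with a median of 557 bp against 895 bp, and 7.78% lay on the X chromosome against 2.20%. In the 8-cell TBE libraries 21.1%, 62.2% and 3.33% of them had a peak, those of replicate 2 being the most frequent.

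Individual sites are given by position in ARS-UCD1.2, with the fold enrichment of the peak in each library. The site with the largest mean over the 18 control libraries outside the 2-cell stage, 10.5, was chr14:23028005-23028268. Its peak reached 10.1, 6.70 and 8.10 in GV oocytes, 10.4 and 6.76 in 4-cell replicates 1 and 2 with none in replicate 3, and 13.1, 14.7 and 13.3 in 8-cell embryos. It was thus taller in 8-cell embryos than in GV oocytes in every library. In 8-cell TBE it stood at 8.97, 5.92 and 8.24, below all 3 controls, and 2-cell control replicate 3 held a peak of 6.20. The next 4 by the same mean were chr20:17977355-17977744, chr15:49642953-49643519, chr29:28548760-28549531 and chr17:516929-518007, each with a peak in all 18 libraries.

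At the chromosome 20 site treated and control 8-cell embryos overlapped. It had peaks of 9.65, 11.3 and 10.4 in 8-cell embryos and 13.2, 9.58 and 10.5 in 8-cell TBE. No 2-cell library, treated or not, had a peak there. At the chromosome 15 site the 8-cell values were 10.1, 10.1 and 11.6 and those of 8-cell TBE 3.73, 3.33 and 3.81, so the groups lay well apart. The chromosome 29 site likewise had 7.45, 9.20 and 9.02 against 4.12, 3.59 and 3.29, and also had a peak in each library of 2-cell TBE, at 3.81, 5.58 and 7.30. These were picked for their control height, so the control values are not independent of the choice.

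Among the 85 sites with a peak in all 9 TBE libraries, the one with the largest mean there, 6.79, was chr15:63789660-63790227. It had 8.56, 8.94 and 8.80 in GV oocytes, no peak in 2-cell control replicates 1 and 2, 4.54 in replicate 3, and 5.20, 6.02 and 8.61 in 2-cell TBE. In 4-cell TBE it stood at 9.38, 4.58 and 5.91 and in 8-cell TBE at 7.50, 6.33 and 7.59, overlapping the 8-cell controls at 6.23, 7.54 and 6.80. The others were chr5:95478442-95479129, chr26:24686495-24687608, chr17:6721915-6722550 and chr2:120653224-120653767. All 5 had a peak in 2-cell control replicate 3 and in neither other 2-cell control list. They were picked for their TBE peaks, and members have no 2-cell region by the rule. A contrast of treated and control 2-cell lists at these sites thus follows from the choice.

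The 7 sites with no TBE peak were led by chr7:62241663-62242119, with a mean of 6.71 over the 18 control libraries. Its GV values were 6.09, 4.01 and 4.36, beside 7.49, 7.64 and 7.95 at the 8-cell stage and 7.36, 10.8 and 8.77 in ESC, the GV values lying below all of these. The next were chr8:59860492-59860843, with 6.14, 7.67 and 7.46 in 8-cell embryos, and chr22:48952387-48953637, with 3.79, 4.32 and 4.08. Each of the 3 lacked a peak in 1 of the 3 4-cell control lists. They were picked for having no TBE peak, so their contrast with the control lists follows from the choice.

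On the X chromosome the tallest sites were chrX:4184007-4184604, chrX:128632248-128633614 and chrX:18782626-18783685. The first had 8.43, 9.76 and 8.69 in GV oocytes and no peak in any 2-cell library of either kind. In 8-cell embryos it stood at 7.78, 9.74 and 9.64 and in 8-cell TBE at 8.58, 6.06 and 9.81, so the groups overlapped. At the third, 8-cell embryos had 5.62, 5.39 and 6.11 and 8-cell TBE 5.00, 3.41 and 4.19, without overlap. The X sites too were picked for their control height, so their control values are not independent of the choice.

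**Figure D5:**
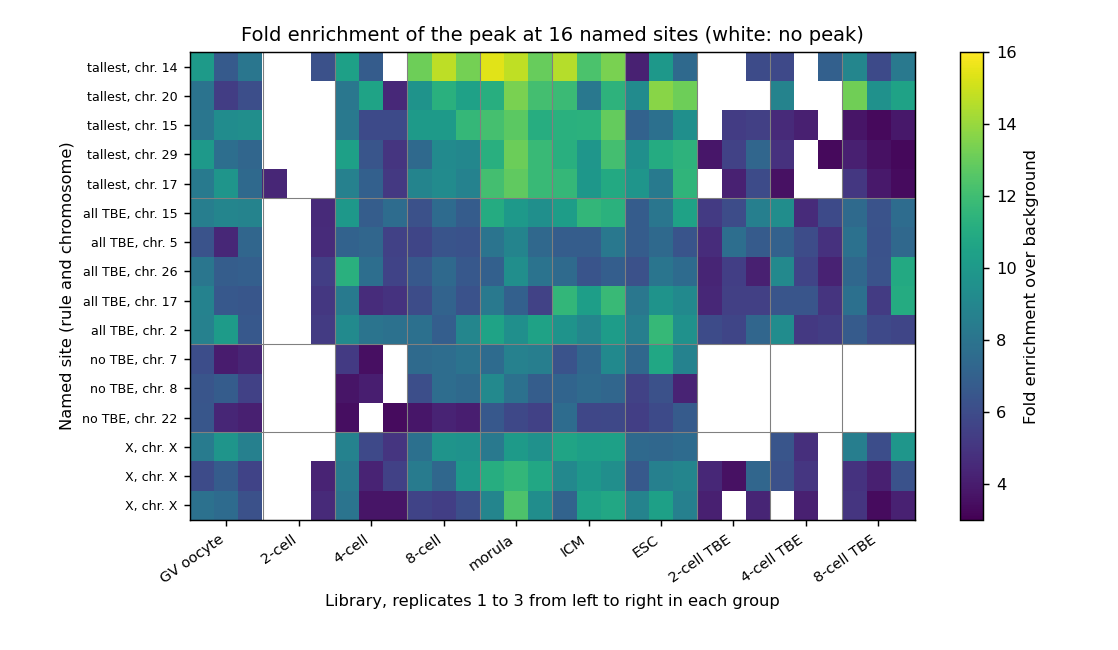
Fold enrichment over background (colour) of the peak at 16 named sites (rows, by the rule that chose them and their chromosome) in the 30 libraries (columns, 3 a group), white where a list has no peak. The 3 rows without TBE peaks are white in all 9 TBE columns and filled in 17 of 18 control columns outside the 2-cell stage. The 5 rows with peaks in all TBE libraries are filled at 2-cell TBE and almost empty at the 2-cell control. Both patterns follow from how the rows and the members were chosen and show no effect of treatment.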

How the data were processed

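Each library had 1 MACS2 broad-peak list. According to the submitters' processing notes, reads were trimmed with Trim Galore and cutadapt 0.4.0, aligned to ARS-UCD1.2 with BWA 0.7.17, and handled with SAMtools 1.7 and deepTools, and peaks were called with MACS2 2.1.1. The deposited lists hold one library each and give per peak a mean fold enrichment, a −log10 p-value and a −log10 q-value. Fold enrichment is a linear ratio of pileup over background with 1 added to both, so it also depends on the background pileup of the library. The score column that the authors' caller adds was not used. The lists hold no read counts, and reads per library were not used here. A background pileup was solved where a peak's enrichment and p-value matched a Poisson tail, with an upper limit only for 2 lists.

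Peaks of a group were merged on 1 bp of overlap and kept with peaks of 2 of 3 replicates, using Python 3.11.15, NumPy 2.4.6, SciPy 1.17.1 and pandas 2.3.3. The functions were tested on simulated data. The members, classes and tests were chosen with earlier results of these data known. Fold enrichment at a site is that of its tallest overlapping peak. Sites named are the 5 with the largest mean over 18 control libraries, the 5 with peaks in the most TBE libraries (ties by mean), the 3 tallest with no TBE peak and the 3 tallest on the X chromosome. Tests were exact permutation tests over libraries. p-values refer to these libraries only, and those over the 9 TBE libraries pool 3 stages.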

Additional observations from a re-analysis of the deposited data

How the results depend on the processing

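Requiring a −log10 q-value of at least 3 left 2610 sites, a region from any replicate gave 15183 and from all 3 replicates 3704, and leaving out a replicate of every stage gave 3941 to 6260. The share of sites with a peak in 8-cell TBE minus held-out control, −1.49 points, became −7.27 at that q-value and −12.8 at 3-fold enrichment, both without overlap, and turned to 10.4 with equal list lengths, where fewer peaks are used, ranging from −3.27 to 0.846 without one replicate. The 4-cell difference ranged from −44.5 to −23.6 and the 2-cell one from 15.7 to 30.6 without one replicate, and the 2-cell one was 2.11 without overlap at equal lengths, 8.70 with 50% of a site covered and 11.6 with regions from any replicate. For the 1000 strongest peaks, the 8-cell difference was −0.11 with 500 peaks, 9.34 with 2000 and 24.5 by fold enrichment, the last 2 without overlap, 9.6 on autosomes, and 2.3 to 7.6 without one replicate, while the 4-cell one was −4.79 by fold enrichment and −8.48 to −7.80 without one replicate. The cause of these changes was not tested. Both comparisons within TBE libraries kept their direction and call in all alternatives run.

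With a replicate block, all 3 same-numbered differences had one sign at the 2-cell stage (20.7 points), the 4-cell stage (−32.3) and for the strongest 4-cell peaks (−8.26), with an exact permutation p of 0.25, the smallest 3 pairs allow. At the 8-cell stage the signs were mixed, at −1.49 and, for the strongest peaks, 4.92 points. Treated and control embryos shared collections, but neither labels nor methods tie a collection to a number. Same-numbered deviations over GV regions correlated at −0.03 to 0.23, and those of different numbers at −0.28 to 0.18. Not every same-numbered pair was above 0.1, so the unpaired test was kept as the main one. These values do not settle whether equal numbers mark a shared collection. Members at promoters were not run, as no annotation of the build was used. Without read counts, a site with no peak may be open below detection.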

Other observations

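The maintained oocyte sites were spread over all chromosomes. They made up 27.5% of GV regions without a 2-cell region, with a median of 27.9% over the 29 autosomes. The share was lowest on chromosome 27, at 16.8%, and highest on chromosome 10, at 35.3%. On the X chromosome 203 of 951 such regions, or 21.3%, were maintained sites, and on unplaced scaffolds 49 of 445, or 11.0%. The share of maintained sites with an 8-cell TBE region was 96.6% on the X chromosome and between 97.3% and 100.0% on the autosomes.

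The sites were a median of 111 kb apart, and 4.76% of the gaps were under 10 kb. This share was 8.44% in the late-reopened class and 18.9% among all GV regions without a 2-cell region, a larger set. Among GV regions without a 2-cell region, the one that followed a maintained site was itself one in 35.6% of 8964 neighbouring pairs, against 27.5% of all such regions. Of 2470 windows of 1 Mb with a GV region lacking a 2-cell region, 2082 held a maintained site, and the median window held 3. The windows with the most, chosen after their values were seen, were chr19:27000001-28000000 with 27 sites among 56 such regions, chr18:65000001-66000000 with 25 among 50 and chr18:55000001-56000000 with 24 among 76. These are counts without a test.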
